A study of Homo sapiens with 10 samples.

Results

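Replication-dependent histone genes were chosen by name, as autosomal protein-coding genes whose symbol is H1- followed by 1 to 6, or H2AC, H2BC, H3C or H4C followed by a number. The rule found 69 of the 19111 autosomal protein-coding genes of GENCODE (GRCh38): 6 encoded linker histone H1, 17 H2A, 18 H2B, 13 H3 and 15 H4. Of these, 55 lay on chromosome 6, 13 on chromosome 1 and 1, H4C16, on chromosome 12. Each canonical transcript had 1 exon. Transcripts spanned 386 bp (H4C7) to 2224 bp (H2BC21). No measured value entered the choice.

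The line PB010.5, human induced pluripotent stem cells with a FUCCI cell cycle reporter, was digested undifferentiated for 5 min with micrococcal nuclease (MNase), of which the tubes held 10, 6, 3, 1 or 0.5 U. MNase cuts linker DNA and leaves nucleosome-bound DNA. There was 1 library per concentration, with a yeast nucleosomal DNA spike-in, and each library was sequenced in 2 runs, of 150-bp and of 50-bp paired reads. The authors pooled libraries into 1 list of nucleosome positions, which is used here, so there are no replicates and no test between conditions, and differences below are descriptions of 1 list.

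The list held 12921589 positions, of which 12465711 were autosomal. Each is a 140-bp interval with a score, the height of the nucleosome signal in the authors' units. The median score was 14.8, and scores rose in steps of 1.23, so the median was 12 steps. The read depth at a position is unknown. The midpoint stands for the nucleosome centre. Of the 656 positions within 1500 bp of a histone gene start, 94.5% began on a grid of 10 bp, so distances are that coarse. The labels name no sorting by cell cycle phase, and the list holds no expression, so the activity of these genes in the cells was not measured here.

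Replication-dependent histone genes supply the core histones H2A, H2B, H3 and H4, and the linker histone H1, that package new DNA in S phase. They stand in clusters, lack introns, and make messenger RNAs that end in a conserved stem-loop rather than a poly(A) tail. The stem-loop is bound by SLBP, and the coactivator NPAT gathers at the clusters. H2A and H2B genes often stand head to head and share the DNA between their starts, which can hold TATA boxes, CCAAT boxes and the octamer bound by OCT1.

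The 3′ stem-loop was found within 100 bases of the stop codon in all 69 genes, 23 to 68 bases after it. There were 10 distinct stem-loops of 16 bases. The 4 sequences below, each on the gene's own strand in hg38 with the stem-loop in capitals, show the forms present in more than 1 gene, carried by 40, 9, 10 and 4 genes in this order. The stem-loops lie at chr6:26020932-26020947 (H3C1, plus strand), chr6:26017037-26017052 (H1-1, minus), chr6:26022030-26022045 (H4C1, plus) and chr1:149833032-149833047 (H4C14, plus).
H3C1: gcaaaGGCTCTTTTCAGAGCCaccac
H1-1: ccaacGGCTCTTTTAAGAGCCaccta
H4C1: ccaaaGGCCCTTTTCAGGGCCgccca
H4C14: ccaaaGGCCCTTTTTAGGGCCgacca

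Promoter windows from RefSeq (GRCh38.p14) show elements to which the positions are compared below. Capitals mark the octamer ATTTGCAT in H2BC8 (chr6:26216718-26216747, minus strand) and H2BC1 (chr6:25726662-25726691, plus). They mark TATAAA in H2BC8 (chr6:26216703-26216732, minus), H3C1 (chr6:26020410-26020439, plus) and H3C2 (chr6:26032114-26032143, minus). They mark AAACACA, the core of the H1 box, in H1-4 (chr6:26156201-26156230, plus) and H1-6 (chr6:26108222-26108251, minus). The windows of H2BC8, H3C2 and H1-4 have their element outside every position, and those of H2BC1, H3C1 and H1-6 have it inside one.
H2BC8 octamer: ttgaattctttATTTGCATgaaaggcctat
H2BC1 octamer: agaatcgcctcATTTGCATtcacgccactt
H2BC8 TATA: gcatgaaaggccTATAAAaggagagactct
H3C1 TATA: cactttacacacTATAAAtagagcagctca
H3C2 TATA: gtggtctgactcTATAAAagaagagtagct
H1-4 H1 box: tgaggtgtaacAAACACAactcgggatccg
H1-6 H1 box: ccgggtaaaacAAACACAaatactcctcct

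The histone families differ in how alike their genes are. The 15 H4 genes encoded 2 distinct proteins and the 13 H3 genes 2, against 11 for the 17 H2A genes, 14 for the 18 H2B genes and 6 for the 6 H1 genes. Between coding sequences of equal length the median identity was 83.7% in H4, 85.3% in H3, 85.2% in H2A and 89.8% in H2B. Coding sequences were identical in the pairs H2AC18 and H2AC19, H3C14 and H3C15, H4C14 and H4C15, and H4C11 and H4C12.

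Reads from exact copies cannot be placed at 1 locus, so repeated sequence was measured as the share of 140-base windows within 1500 bp of the start that have an exact copy elsewhere in the genome. In 47 genes no window had a copy, in 14 genes up to 10% had one, and in 8 genes, all on chromosome 1, more than 10% had one. H3C14, H3C15, H4C14 and H4C15 were 100% repeated and had 0 positions within 1500 bp of their starts. H2AC18 and H2AC19 were 74.2% and 74.1% repeated and had 4 positions each, none of them in the gene. H3C13 was 26.2% repeated with 1 position, and H2BC18 20.4% with 3. By contrast, the 61 genes with at most 10% repeated windows had 10 (H4C11) to 19 (H4C7 and H3C12) positions, with a median of 15, beside 16 over all autosomal protein-coding genes. H4C7 encodes a diverged H4.

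**Figure D1:**
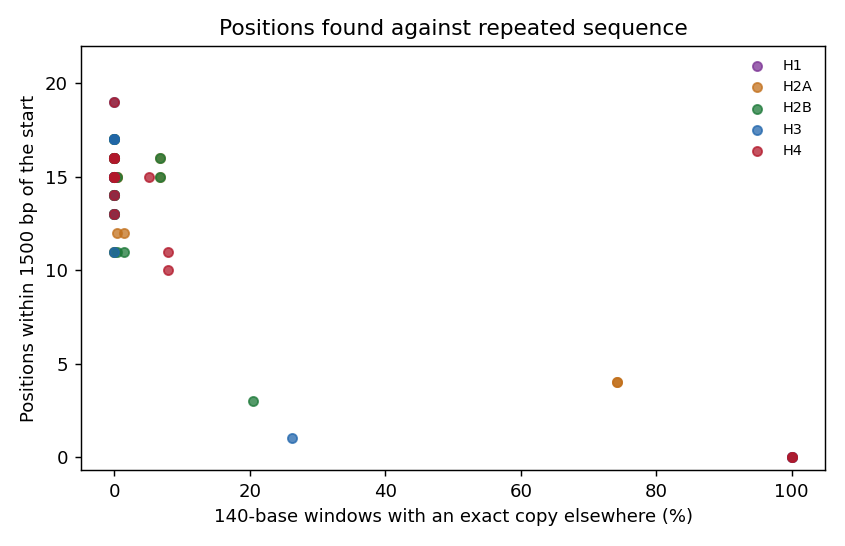
Positions within 1500 bp of the start (vertical axis, count) against the percent of 140-base windows with an exact copy elsewhere (horizontal axis), 1 point per gene, coloured by family; points can lie on each other. The 8 genes over 10% hold 0 to 4 positions and the other 61 hold 10 to 19.

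Repeats inside the transcript did not always go with empty transcripts. Of the 69 genes, 10 had no midpoint in the transcript. They were the 4 fully repeated genes, H2AC18, H2AC19, H2BC18, H4C11, H4C12 and H2BC12. In H4C11 and H4C12, whose coding sequences are identical, 58.4% and 58.7% of the windows in the gene were repeated, while only 7.93% were within 1500 bp. H4C12 had its nearest midpoints 262 bp upstream and 418 bp downstream of its start, with scores of 7.40 and 25.9. H2BC12 had 1.82% of windows in the gene repeated at 140 bases, but 51.5% at 50 bases. By contrast, H2AC13 and H2AC14 had higher shares, 39% and 40.5% at 140 bases and 57.2% and 59.5% at 50 bases, and held 2 positions each. In repeated stretches the absence of nucleosomes and unplaced reads cannot be told apart. Values below are given for all 69 genes and for the 61 with at most 10% repeated windows within 1500 bp, which still include H4C11, H4C12, H2BC12, H2AC13 and H2AC14. Without these 5 genes, 58.9% of the remaining 56 had no midpoint in the 200 bp upstream of the start, and the median gap across the start was 320 bp, as described below.

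The first nucleosome downstream of the start, called +1 here, was the nearest midpoint 0 to 300 bp downstream of the canonical start. It was present in 57 of the 69 genes, at a median of 93 bp, beside 109 bp over all genes and 95 bp over 551 other single-exon genes of at most 1500 bp. The distance ran from 0 bp in H4C4 to 199 bp in H4C6. By family the medians were 70 bp in H2A, 87.5 bp in H2B, 94 bp in H4, 110.5 bp in H1 and 129 bp in H3. H2A genes therefore had the +1 midpoint closest to the start and H3 genes farthest from it. Counted from the start codon the order was the same at both ends, with medians of 20.5 bp in H2A and 99.5 bp in H3. Several near H2A positions had low scores, 7.40 in H2AC12 (26 bp) and H2AC20 (44 bp). The score was 9.87 in H2AC21 (33 bp) and H2AC14 (45 bp), but 25.9 in H2AC1 (20 bp). The family order was not recomputed without low-scoring positions.

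The +1 score had a median of 23.4 in histone genes and 23.4 over all genes. The highest was 56.8 in H2AC8, and the lowest was 6.17 in H3C3 and H2BC14. H1 genes had the strongest +1 positions, with a median of 32.7 and a range of 28.4 to 38.2, and H3 genes followed at 30.8. H4 genes had 22.2, H2A genes 21.6 and H2B genes 16.0. Scores in this list rise with GC content, so each +1 was also ranked among autosomal positions of the same GC content. The median percentile was then 90.7 for H1, 76.9 for H3, 53.8 for H4, 40.6 for H2A and 28.3 for H2B, the same order.

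**Figure D2:**
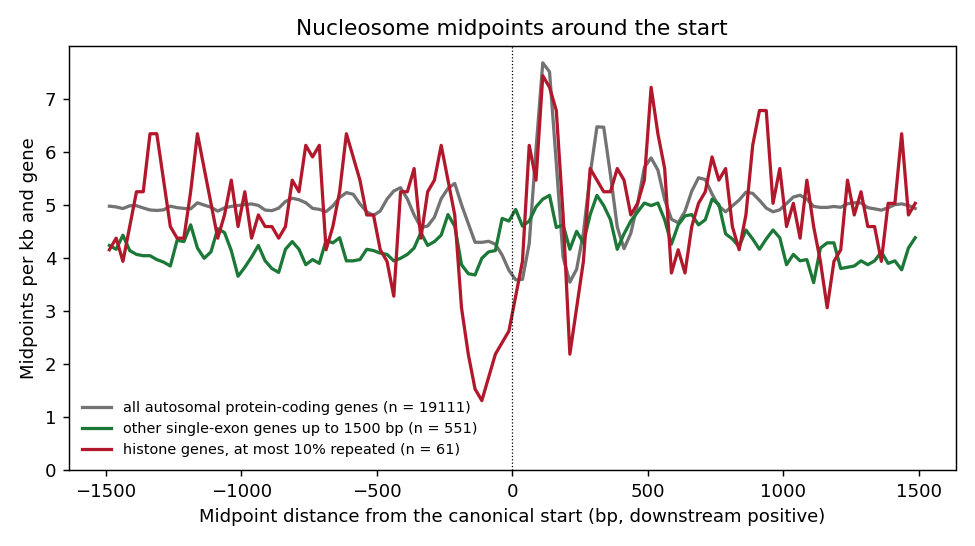
Midpoints per kb and gene (vertical axis, smoothed over 3 bins of 25 bp) by distance from the canonical start (horizontal axis, bp), for the 61 histone genes with at most 10% repeated windows, 551 other single-exon genes and all 19111 genes. The histone line falls to 1.31 at 112.5 bp upstream, where the line of all genes is at 4.29.

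Upstream of the start, histone genes were poor in positions. In the 200 bp upstream, 45 of the 69 genes (65.2%) had no midpoint, beside 25.8% of all genes and 29.8% of the other single-exon genes. Among the 61 genes with little repeated sequence it was 37 (60.7%). Head-to-head genes share the DNA between their starts, so 9 empty stretches were counted for both genes of a pair. The density of midpoints in these 200 bp, relative to that 1000 to 1500 bp from the start on both sides, was −1.31 on the log2 scale, and −1.28 in the 61 genes. The same ratio was −0.20 over all genes and 0.03 over the single-exon genes. The 23 distinct positions centred in these stretches had a median score of 12.3, with a range of 2.47 to 29.6, and 39.1% of them reached the median score of the list. Over all genes the positions there had a median of 16.0, and 58.8% reached it. Scores in this comparison were not ranked by GC content.

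The gap, measured from the last midpoint before the start to the next one after it, had a median of 330 bp in the histone genes and 320 bp in the 61 with little repeated sequence, beside 225 bp over all genes and 220 bp over single-exon genes. It was over 300 bp in 39 of 69 genes, and in 35 of the 61, beside 25.4% of all genes. The narrowest gap was 100 bp in H4C1. The widest in the 61 were 910 bp at H2BC12 and H2AC12, which share a gap, and 815 bp in H4C11. Those genes hold repeated sequence in or beside the gap, as above. The base 30 bp upstream of the start, where a TATA box usually lies, was inside a 140-bp position in 21 of 69 genes, and in 21 of the 61, beside 53% of all genes.

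**Figure D3:**
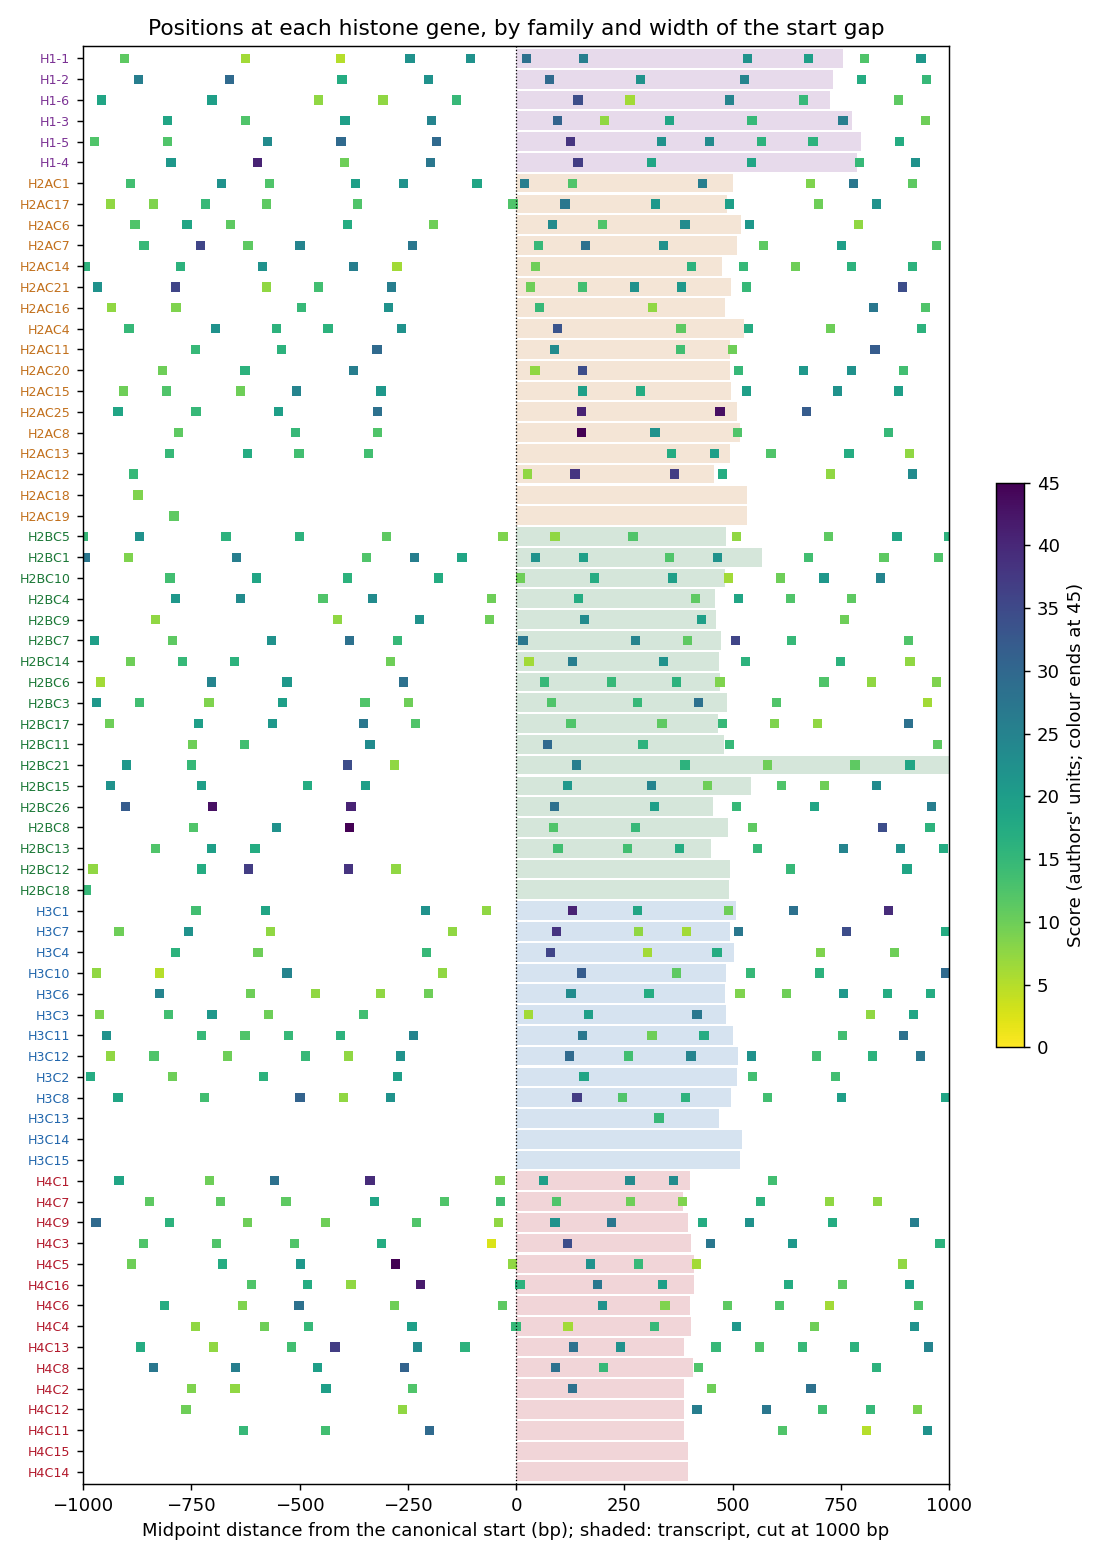
Midpoints (squares, coloured by score) by distance from the canonical start (horizontal axis, bp) in each of the 69 genes (rows), ordered by family and by width of the gap; shading marks the transcript. Most rows of H2A, H2B and H3 genes are empty just upstream of the start, and those of the fully repeated H3C14, H3C15, H4C14 and H4C15 are empty throughout.

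The families had different shares of genes with this stretch empty. Among genes with little repeated sequence, 12 of 15 H2A, 12 of 17 H2B, 7 of 10 H3, 5 of 13 H4 and 1 of 6 H1 genes had no midpoint in the 200 bp upstream. In 9 head-to-head pairs an H2A and an H2B gene shared the same empty stretch, so the H2A and H2B counts are not independent. The log2 density ratio was −2.30 in H2A, −1.77 in H3, −1.70 in H2B, −0.57 in H4 and −0.26 in H1. The place of H1 depended on the window, since 3 of its 6 genes had their nearest upstream midpoint 184 to 197 bp away. Within 150 bp, 4 of 6 H1, 13 of 15 H2A, 13 of 17 H2B, 8 of 10 H3 and 6 of 13 H4 genes had none. No share over all genes was computed for this shorter window. Median gaps were 360 bp in H2A, 355 bp in H3, 330 bp in H2B, 285 bp in H1 and 230 bp in H4. H4 genes thus had gaps close to the median of all genes. In H1 genes the gap was wider than that, but its upstream midpoint lay within 200 bp of the start in 5 of 6 genes. The base 30 bp upstream was inside a position in 8 of 13 H4 genes, 6 of 17 H2B, 4 of 15 H2A, 2 of 10 H3 and 1 of 6 H1 genes.

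**Figure D4:**
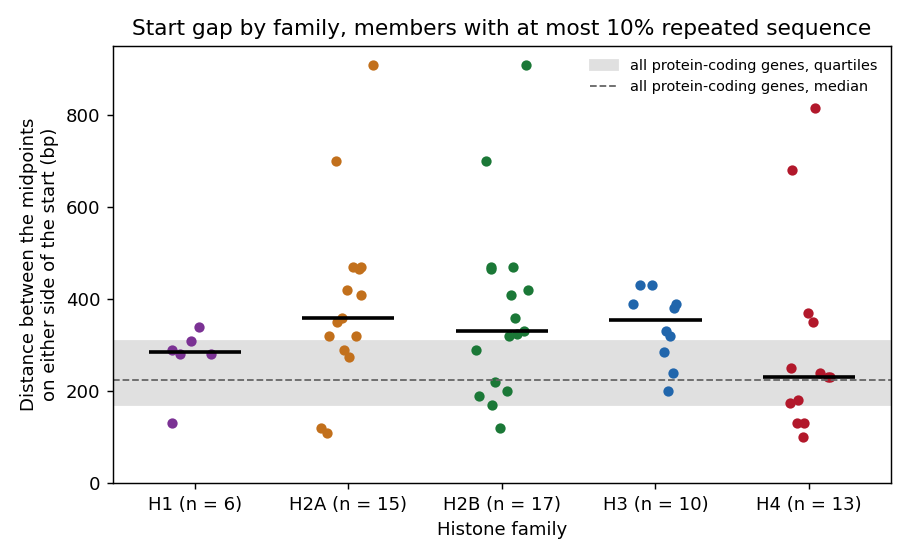
Gap across the start, from midpoint to midpoint (vertical axis, bp), in the 61 genes with at most 10% repeated windows, 1 point per gene, by family; black bars are medians, and grey shading and the dashed line are the quartiles (170 to 310 bp) and median (225 bp) of all protein-coding genes. Medians run from 230 bp in H4 to 360 bp in H2A.

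Individual genes show these forms. H1-1, a linker histone gene, had midpoints 105 bp upstream and 25 bp downstream of its start, with scores of 22.2 and 28.4, which left a gap of 130 bp. The other 5 H1 genes had gaps of 280 to 340 bp. In H1-4 the midpoints lay 197 bp upstream and 143 bp downstream, with scores of 27.1 and 37.0. Both H1-1 positions therefore lay nearer to the start than those of H1-4.

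H3C1 had a weak position 69 bp upstream, with a score of 7.40, and a strong one 131 bp downstream, with a score of 40.7. H3C2 had none from 273 bp upstream to 157 bp downstream, a gap of 430 bp. Both genes encode the same type of core histone and both carry a TATAAA close to the start, shown above. In H3C1 it lay 42.5 bp from a midpoint and in H3C2 186.5 bp from one.

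H4 genes more often had a position just upstream. The nearest upstream midpoint was 37 bp from the start in H4C1 (score 8.64), 36 bp in H4C7 (13.6), 31 bp in H4C6 (11.1), 40 bp in H4C9 (7.40), 8 bp in H4C5 (7.40) and 56 bp in H4C3 (2.47). These 6 scores were below the median of the list, 14.8. The other 2 H4 genes with a midpoint in the 200 bp upstream were above it, H4C13 at 118 bp (16.0) and H4C11 at 200 bp (29.6). H4C8, with midpoints 258 bp upstream (30.8) and 92 bp downstream (28.4), and H4C2, with 239 bp (12.3) and 131 bp (28.4), had the wide form. H4C16, the gene on chromosome 12, had its nearest midpoints 221 bp upstream, with a score of 41.9, and 9 bp downstream, with a score of 16.0.

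The location within the clusters went with the gap too. The 34 genes between 25726063 and 26285534 on chromosome 6 had a median gap of 280 bp, and 16 of them (47.1%) had no midpoint in the 200 bp upstream. The 21 genes between 27132316 and 27893891 had a median gap of 390 bp, and 15 of them (71.4%) had none. All 5 genes of chromosome 1 with little repeated sequence had none, with a median gap of 420 bp. Of these, H2AC25 and H2BC26 lie far from the rest, at 228457364 to 228458558. H2BC21 and H2AC20 share their empty stretch, as do H2AC25 and H2BC26. Head-to-head pairs on chromosome 6 can share theirs too, so the genes counted are not independent. These groups differ in family makeup and in repeated sequence, and the part of either in the gap was not tested.

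The 3 genes known as testis-specific, H1-6, H2AC1 and H2BC1, each had a midpoint in the 200 bp upstream. Most genes have one, since 25.8% of all genes had none there. Among the 6 H1 genes only 1 had none. H1-6 encodes the linker histone of spermatocytes, and its midpoints lay 137 bp upstream (score 14.8) and 143 bp downstream (34.5). H2AC1 had midpoints 90 bp upstream (18.5) and 20 bp downstream (25.9). H2BC1 had them 125 bp upstream (18.5) and 45 bp downstream (22.2). Gaps were 280, 110 and 170 bp. The log2 density ratio over the 3 genes was 0.21, but H2AC1 and H2BC1 share their upstream position, so 2 distinct positions lie behind it.

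Divergent pairs, members on opposite strands with starts at most 1000 bp apart, numbered 13 and held 26 genes. There were 12 pairs of H2A with H2B, plus H3C7 with H2BC9, and the distance between starts ran from 194 to 979 bp, with 240 bp as the median. In 9 of the 13 no midpoint lay between the starts. Of the 538 other head-to-head pairs of protein-coding genes in the same distance range, 10.2% had none, but their median distance was 366 bp. In the 9 pairs the median distance from the last midpoint of 1 gene to the first of the other was 465 bp.

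H2BC8 and H2AC8, 233 bp apart, had the midpoints that flank their shared promoter 86 bp into H2BC8, with a score of 12.3, and 151 bp into H2AC8, with a score of 56.8. No base between the starts lay inside a position, and the midpoints were 470 bp apart. H2AC25 and H2BC26, 230 bp apart, also had 470 bp between midpoints, with scores of 40.7 and 28.4. H2AC15 and H2BC15, with the closest starts at 194 bp, had 465 bp, with scores of 19.7 and 21.0. In these 3 pairs both flanking nucleosomes were centred inside the transcripts.

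In H2AC7 and H2BC7, by contrast, the flanking midpoints were 290 bp apart, and their positions covered 72 of the 223 bp between the starts. H2BC12 and H2AC12 and H2BC13 and H2AC13 had the longest empty spans, 910 and 700 bp. Of the 50-base windows within 1500 bp of their starts, up to 11.5% and 13.2% were repeated, but H2AC14 and H2BC14, with up to 12.6%, had 320 bp.

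A midpoint lay between the starts in 4 pairs. In H2AC1 and H2BC1 it had a score of 18.5, and positions covered 214 of the 215 bp. H2BC4 and H2AC6 had 1 with a score of 9.87, and H2AC17 and H2BC17 had 1 with a score of 12.3, which lay 7 bp upstream of H2AC17. H3C7 and H2BC9, whose starts were 979 bp apart, had 4. The H2A and H2B pair known as testis-specific was thus the one pair with its shared promoter almost wholly inside positions.

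Promoter sequences, 250 bases before to 50 after the start, were matched in RefSeq for 64 of the 69 genes. H2AC12, H3C11, H3C12, H4C1 and H4C3 had no entry, and the RefSeq starts of H3C4 and H3C6 lay over 50 bp from the canonical start, which left 62. Letters were searched on both strands. TATAAA was in 66.1% of the 62 promoters, beside 12.0% of 26246 autosomal promoters. On the sense strand with its first base 45 to 20 bases before the start, it was in 35 of the 62 (56.5%), beside 2.67%. CCAAT was in 83.9%, beside 35.4%. It was in all 49 promoters of H1, H2A, H2B and H3 genes, and in 3 of 13 H4 promoters.

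The octamer ATTTGCAT was in 40.3% of the 62, beside 1.79% of all promoters. It was found in 14 of 18 H2B and 11 of 16 H2A promoters, and in none of the H1, H3 and H4 promoters. In these H2A promoters, except those of H2AC4, H2AC16 and H2AC21, the site was that of the paired H2B gene and was counted for both. The H1 box core AAACACA was in 14.5%, beside 5.79%, and in 6 of 6 H1 promoters. In 5 of the 6 it was on the sense strand, 105 to 119 bases before the start, and in H1-1 it was on the other strand. No match says only that these letters are not in the window.

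CCAAT, the octamer and TATAAA close to the start were mostly outside positions. The sites lie mostly in the upstream stretch already described as poor in positions, so this is not a separate result. Over distinct sites in genes with little repeated sequence, 20 of 92 CCAAT (21.7%), 4 of 16 octamers (25%) and 8 of 25 counted TATAAA close to the start (32%) were inside a 140-bp position. The same letters in all autosomal promoters were inside a position at 54.5%, 54.7% and 54.9% of sites. For AAACACA, counted anywhere in the promoter window, it was 5 of 9 sites, beside 62.6%. Its sense-strand sites 105 to 119 bases before the start were outside every position in H1-2, H1-3, H1-4 and H1-5. That of H1-6 was inside one. The sites elsewhere in the window, in H1-1, H1-2, H1-5 and H2AC20, were inside. The TATAAA count leaves out those of H2BC1, H2BC8, H2BC11, H2BC13 and H2BC21, which were also matched from the paired H2A gene. All of these lay outside positions, so the share with them is lower. Sites in 1 promoter are not independent, since a position covers several of them.

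The octamer of H2BC8, on the shared promoter shown above, lay 130.5 bp from the nearest midpoint, outside every position. That of H2BC1 lay 24.5 bp from a midpoint with a score of 18.5. On the sense strand in H2B promoters it began 45 to 49 bases before the start in 8 genes and 104 to 123 bases before it in 5. In the first set, leaving out H2BC18, the next midpoint downstream was 52.5 to 675.5 bp from the octamer, with a median of 130.5 bp. In the other it was 63.5 to 197.5 bp away, with a median of 145.5 bp. The H1 box of H1-4 lay 83 bp from the nearest midpoint and outside it, and that of H1-6 lay 35 bp from one and inside it.

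Over the transcripts, positions were about as dense as over other genes. The 61 genes with little repeated sequence had 5.01 midpoints per kb of gene, beside 4.87 over all genes and 4.69 over single-exon genes. Most held 2 (23 genes) or 3 (25 genes) midpoints. Neighbouring midpoints from the start to 200 bp past the end were a median of 170 bp apart over 169 spacings, beside 180 bp over all genes and 170 bp over single-exon genes. By family the medians were 150 bp in H3, 155 bp in H4, 162.5 bp in H2A and 180 bp in both H1 and H2B.

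The median score of a gene's positions had a median of 19.7 over histone genes, beside 16.0 over all genes and 16.7 over single-exon genes. It stood at percentile 67.6 among autosomal positions. Ranked within the same GC content it stood at 44.3, and 23 of the 59 genes with a position were above 50. The positions in the histone genes had a median GC content of 56.5%, and the raw and GC-ranked values lay on opposite sides of the middle. By family the GC-ranked percentile was 58.5 in H1, 52.8 in H4, 44.9 in H2A, 37.1 in H3 and 33.4 in H2B. In H3, 1 of 11 genes was above 50. These percentiles include the +1 position.

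H2AC25 had the highest median score of the 61 genes, 41.9, at percentile 96.3 within its GC content, from 2 positions with scores of 40.7 and 43.2. H3C7 had the lowest, 7.40, at percentile 0.97. Its midpoints lay 93, 283 and 393 bp into the gene, with scores of 38.2, 7.40 and 6.17, so its +1 alone was strong. H4C3 had 1 position in the gene, with a score of 34.5, and H2BC5 had 2, with a median of 9.87.

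At the 3′ end, the last base of the transcript was inside a position in 49 of 69 genes, and in 49 of the 61 (80.3%), beside 57.2% of all genes and 54.4% of single-exon genes. Among the 61 it was inside in 14 of 15 H2A, 9 of 10 H3, 5 of 6 H1, 12 of 17 H2B and 9 of 13 H4 genes.

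The stem-loop lay wholly inside a position in 43 of 69 genes, all of them among the 61 (70.5%). The stem-loop was not searched for in other genes, but the last base of the transcript was inside a position in 57.2% of all genes. Since the stem-loop lies close to the transcript end in all genes but H2BC21, this largely repeats the result for the last base. The median distance from its centre to the nearest midpoint was 52.5 bp, and 48.5 bp in the 61. Of these, 20 lay within 30 bp of a midpoint, for which no share over all genes was computed. It was inside in 13 of 15 H2A, 8 of 10 H3, 9 of 13 H4, 10 of 17 H2B and 3 of 6 H1 genes. The stem-loop of H3C1, printed above, was 2.5 bp from a midpoint with a score of 9.87. That of H4C1 was 25.5 bp from one with a score of 23.4, and that of H1-1 was 62.5 bp from one with a score of 12.3 and partly outside it.

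The farthest among genes without repeated windows was H2AC16, at 153.5 bp. In H2BC21 the stem-loop was 93.5 bp from a midpoint and 1729 bases before the end of the annotated transcript, which runs on past it. In all other genes it was 0 to 18 bases before the end.

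Past the end, the 61 genes had 5.38 midpoints per kb over 500 bp, beside 4.98 over all genes. Relative to the density over the gene this was 0.10 on the log2 scale, and 0.08 over all 69 genes, beside 0.03 over all protein-coding genes. Counts ran from 1 in H2AC25, H4C1, H2AC8 and H2BC9 to 5 in H3C6. The median score there was 15.4, beside 19.7 in the gene. It was 13.6 beside 16.7 over single-exon genes, and 16.7 beside 16.0 over all genes. These scores were not ranked by GC content.

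Other histone genes and histone gene factors were listed for comparison. Among 13 replication-independent histone genes, which supply variants outside S phase, 6 (46.2%) had no midpoint in the 200 bp upstream, and the median gap was 310 bp. H2AX had 590 bp, H3-3B 540 bp and H3-3A 515 bp. Among 11 factors of histone gene expression, 1, LSM10, had no midpoint there, and the median gap was 200 bp. NPAT had 250 bp and SLBP 190 bp.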

How the data were processed

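Nucleosome positions of MNase-digested human induced pluripotent stem cells were taken from 1 pooled list of a series of 10 samples, which are 5 libraries in 2 runs each. The authors made it with the nucMACC workflow under Nextflow, on GRCh38, with regions of the ENCODE blacklist removed. Trimmomatic 0.40 is named in the submitters' processing notes. The aligner and caller of the list, and the runs pooled, are not given in the sources used here. For the 50-bp runs the authors report that nucleosome profiling failed and that those data were left out of later steps. The deposited score of each position is a signal height whose scaling is not stated. Nearly all scores are whole multiples of 1 step. No column of other series was present.

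Genes, canonical starts and ends were taken from GENCODE release 44, and genome sequence from hg38. The midpoint is the interval start plus 70 bp. GC content was taken over 147 bp in bins of 5 percentage points. Exact copies of 140-base and 50-base windows were searched on both strands. Values are counts and medians over genes, with no test, since 1 pooled list has no replicates and genes are not replicates of a condition. The code was tested on simulated positions. All members may be named. The rule gave detail for the first-numbered gene of each family, H1-6, the lowest and highest members of each measure, and each member with repeated sequence or no position in the gene. H1-4, H3C2, H2BC8 and other examples were chosen after their values were seen. The members and lists were chosen with earlier results of these data known. Python 3.11.15 was used with NumPy and pandas.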

Additional observations from a re-analysis of the deposited data

How the results depend on the processing

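Results were recomputed with 46 alternative values in all. Of these, 37 lay within the 95% interval of the reported value, 8 lay outside it and 1 had the opposite sign. The intervals are of a median, a share or a ratio, and take genes or positions as independent. Keeping positions at or above the median score moved the positions within 1500 bp from 15 to 9, the +1 distance to 126.5 bp, the gap to 467.5 bp, the genes with no midpoint upstream to 85.5%, the spacing to 200 bp and the stem-loop distance to 69.5 bp. That filter removes positions by construction, and over all genes it gave a gap of 350 bp and 53.3% with none. It also turned the density past the end from 0.08 (interval −0.24 to 0.40) to −0.29 (−0.70 to 0.12) on the log2 scale. Both intervals hold both signs, and the cause was not tested. Without GC bins the score percentile was 67.6, and with 50-base windows the median repeated share was 2.71%. The log2 density upstream was −1.70 with the score filter, and stayed between −1.46 and −1.03 under the other starts, windows, flanks and gene sets tried. In alternatives chosen after seeing the data, genes outside divergent pairs gave −1.03, a gap of 320 bp and 60.5% with none, and the 56 genes with few repeats in the gene as well gave −1.23, 320 bp and 58.9%. No paired analysis was possible because the pooled list carries no replicates, and for the same reason no library could be left out. The depth behind a position is unknown, so an empty stretch is one without a called position.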
